A study of Mus musculus with 6 samples.

Results

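MHC class II presentation was followed through 7 genes of the 54532 in the table: H2-Aa, H2-Ab1, H2-Eb1, H2-DMa, H2-DMb1, Cd74 and Ciita. They were taken by gene name, and all 7 were found. The RNA came from peritoneal macrophages of wild-type male C57BL/6J mice aged 6 to 8 weeks, elicited with thioglycolate, collected by lavage and kept by plating, with no cell sort. The 6 libraries fell into 3 groups of 2. Control cells received neither stimulus nor drug. Model cells received LPS at 500 ng/mL for 5.5 h and then ATP at 2 mM for 0.5 h, the treatment used to prime and then activate the NLRP3 inflammasome. MUS cells were stimulated in the same way, and muscone, a macrocyclic ketone of musk, was added at 50 μM for 0.5 h ahead of ATP. Since LPS and ATP were always given together, and no group received muscone alone, the effect of each agent by itself cannot be told apart. The sources used here do not say whether the replicates came from separate mice, so p-values measure only the spread between these libraries, which may be technical.

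MHC class II molecules display peptides from endocytosed material to CD4+ T cells. An alpha and a beta chain (H2-Aa with H2-Ab1 for I-A) assemble on the invariant chain, encoded by Cd74, which fills the peptide groove and leads the complex to endosomes. Proteases degrade the invariant chain there, and the DM heterodimer (H2-DMa with H2-DMb1) exchanges its last fragment for an antigenic peptide. Transcription of the H2 genes and of Cd74 depends on Ciita, a coactivator that does not bind DNA itself and is recruited by RFX, CREB and NF-Y proteins on the X and Y boxes of the promoters. In macrophages, interferon gamma is the classical inducer of Ciita. C57BL/6 mice carry a defective alpha chain gene of I-E, so that H2-Eb1 is transcribed but I-E does not reach the cell surface.

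The promoters of H2-Aa and H2-Eb1 are shown so that the letters of the X and Y boxes, through which Ciita is known to act, can be seen beside the genes measured below. The sequences are RefSeq's, on GRCm38.p6, and give the 150 bases before the gene start, 5′ to 3′ on the strand of the gene, at chr17:34287824-34287973 (minus strand) for H2-Aa and chr17:34305717-34305866 (plus strand) for H2-Eb1. Capitals mark CCAAT, the core of the Y box, and GCAAC and TGACG, which are parts of the X1 and X2 boxes, on either strand.
H2-Aa: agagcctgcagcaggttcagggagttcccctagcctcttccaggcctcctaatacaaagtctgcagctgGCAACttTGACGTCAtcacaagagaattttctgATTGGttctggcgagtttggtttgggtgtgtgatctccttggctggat
H2-Eb1: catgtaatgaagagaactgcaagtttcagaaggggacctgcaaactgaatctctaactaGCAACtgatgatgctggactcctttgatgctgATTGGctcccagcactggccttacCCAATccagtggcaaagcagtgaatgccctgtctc

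In H2-Aa, GCAAC lay 81 to 77 bases before the gene start, TGACG lay at 74 to 70 and, on the opposite strand, at 71 to 67, the pair overlapping, and CCAAT lay on the opposite strand at 48 to 44. In H2-Eb1, GCAAC lay at 91 to 87 bases and CCAAT at 59 to 55 on the opposite strand and at 35 to 31, and TGACG was not found. The same order, an X1 part upstream of a CCAAT on the opposite strand, was thus present in both. These short runs of letters are common. Over 250 bases before the start and on both strands, CCAAT was found in 33.8% of 32851 RefSeq promoters, GCAAC in 29.9% and TGACG in 17.8%. CCAAT and GCAAC occurred together in 10.6% and all 3 in 1.97%. Of the other members, H2-DMb1 had a CCAAT on the opposite strand at 61 to 57, and the 2 entries of H2-DMa held 1 match each. Those entries start at 34122832 and 34125518, well upstream of the start of the measured gene, 34135182. The bases just before that start were not searched, so these matches do not describe its promoter there. Only 4 members were searched. H2-Ab1 and Ciita had no promoter entry, and Cd74, on chromosome 18, was left out of the search. These matches describe letters, not measured binding.

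The H2 members lie together on chromosome 17. Positions are given as the table has them. They were those of GRCm38 for most of its genes, but of the members only H2-DMb1 and Ciita had the start and end of GENCODE M21, and those of the other members differed. On these positions, the order along the chromosome was H2-DMa (ENSMUSG00000037649, 34135182 to 34139101, plus strand), H2-DMb1 (ENSMUSG00000079547, 34153072 to 34160230, plus), H2-Ab1 (ENSMUSG00000073421, 34263209 to 34269418, plus), H2-Aa (ENSMUSG00000036594, 34282744 to 34287827, minus) and H2-Eb1 (ENSMUSG00000060586, 34305877 to 34316199, plus). Cd74 (ENSMUSG00000024610) lies on chromosome 18 at 60803848 to 60812646 and Ciita (ENSMUSG00000022504) on chromosome 16 at 10480059 to 10528418, both on the plus strand. All 7 are protein-coding, and none overlaps another gene of the table. Of all 50-base stretches of their transcripts, 22.7% in H2-DMb1 were shared with other genes, chiefly its near copy H2-DMb2, and 8.43% in H2-DMa, chiefly with Brd2, so reads of these genes could be split. The share was 1.46% in Ciita, 0.514% in H2-Aa and 0 in H2-Ab1, H2-Eb1 and Cd74.

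FPKM is a fragment density, scaled to gene length and to a library total. The fragments on genes, recovered from the deposited values, came to 15742538 and 17135442 for Control, 15529580 and 15526321 for Model, with 16222724 and 16481372 for MUS. Model replicate 1 stood apart, with 24906 genes above 0 against 17406 to 19200 in the other libraries, and results that rest on it are given below also without it. The library total behind the FPKM was 1.45 and 1.34 times the fragments on genes in the Control libraries and 0.909 to 0.998 times in the other libraries. Control FPKM are therefore lower, relative to fragments, than those of Model and MUS.

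Of the members, Cd74, H2-Aa, H2-Eb1 and H2-Ab1 were abundant in untreated and in stimulated cells. Cd74 was the highest member and Ciita the lowest in all 6 libraries. Cd74, the invariant chain, measured 811 and 640 FPKM in Control, 840 and 582 in Model, with 1063 and 910 in MUS. In FPKM, both MUS libraries lay above every other library, while Control and Model overlapped. Per 1000000 fragments on genes, Cd74 had 1661 and 1204 in Control, 1076 and 819 in Model, with 1397 and 1265 in MUS, so that on this scale MUS overlapped Control and both Model libraries were lowest.

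H2-Aa, the I-A alpha chain, measured 188 and 213 FPKM in Control, 257 and 191 in Model, with 230 and 235 in MUS. H2-Ab1, the I-A beta chain, measured 139 and 172 FPKM in Control, 288 and 154 in Model, with 148 and 168 in MUS. H2-Eb1, the I-E beta chain, measured 197 and 218 FPKM in Control, 297 and 199 in Model, with 192 and 203 in MUS. For each of these 3 chains, Model replicate 1 was the highest library and Model replicate 2 fell within the range of Control. By mean FPKM over the libraries, H2-Aa (219), H2-Eb1 (218) and H2-Ab1 (178) were neighbours. H2-Aa and H2-Eb1 changed places between libraries and did not differ beyond their spread, whereas H2-Ab1 lay below H2-Eb1 in all 6 libraries.

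The DM chains were expressed at a lower level. H2-DMa measured 22.2 and 10.9 FPKM in Control, 10.1 and 7.24 in Model, with 5.56 and 7.84 in MUS. Both Model libraries lay below both Control libraries, with little distance between 10.9 and 10.1. H2-DMb1 measured 13.1 and 16.2 FPKM in Control, 21.2 and 15.3 in Model, with 9.36 and 11.5 in MUS, and both MUS libraries lay below the other libraries. The ratio of H2-DMa to H2-DMb1 was 1.70 and 0.676 in Control, 0.475 and 0.473 in Model, with 0.595 and 0.683 in MUS, so that H2-DMa exceeded its partner only in Control replicate 1.

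Ciita, the coactivator itself, had few fragments and was lowest in the stimulated cells. It measured 0.968 and 1.76 FPKM in Control, 0.438 and 0.494 in Model, with 0.118 and 0.458 in MUS. These levels rest on 211 and 383 fragments in Control, 59 and 73 in Model, with 17 and 71 in MUS. Every Control library lay above every stimulated library, whereas Model and MUS overlapped only narrowly, at 0.438 in the lower Model and 0.458 in the higher MUS library. By exact Poisson limits at 95%, which cover counting error only, the lower Control value spanned 0.842 to 1.11 FPKM and the higher Model value 0.387 to 0.621. In bulk RNA, fewer cells that express a gene and less RNA per cell cannot be told apart.

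**Figure D1:**
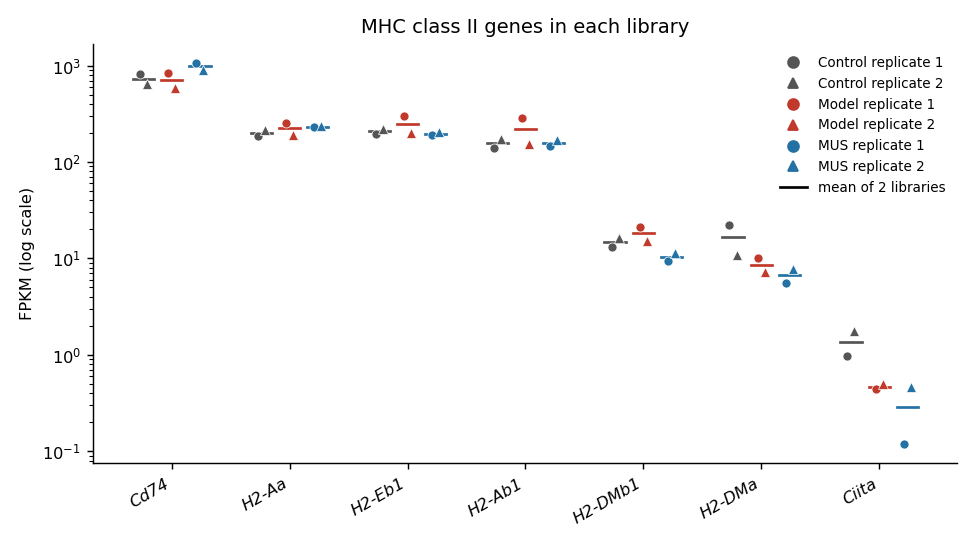
FPKM of the 7 class II genes on a log axis, with 1 point per library, coloured by group, and genes ordered by level. The Control points of Ciita, 0.968 and 1.76, lie above all stimulated libraries, while the points of H2-Aa, H2-Eb1 and H2-Ab1 from the 3 groups intermingle.

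Within each library, the chains and Cd74 held a lower place among all genes in Model than in Control. Cd74 was the 24th and 33rd gene by FPKM in Control, the 63rd and 66th in Model, and the 31st and 35th in MUS. H2-Aa held places 118 and 111 in Control, 235 and 235 in Model, with 203 and 198 in MUS. H2-Eb1 held places 114 and 107 in Control, 196 and 221 in Model, with 234 and 221 in MUS. H2-Ab1 held places 191 and 157 in Control, 202 and 293 in Model, with 322 and 265 in MUS. Of all 7 members, 6 held a lower place in both Model libraries than in both Control libraries, where 34% of the 9794 genes tested below did, and H2-DMb1 overlapped, at 2326 and 2021 against 2047 and 2407. In MUS, 6 members, all but Cd74, held a lower place than in both Control libraries, where 38.4% of the genes tested did. Together, the 4 genes made up 0.571% and 0.523% of all FPKM in Control, 0.429% and 0.374% in Model, with 0.504% and 0.496% in MUS. These places and shares do not depend on the scale of a library, but they move when other genes rise, and they were not tested.

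**Figure D2:**
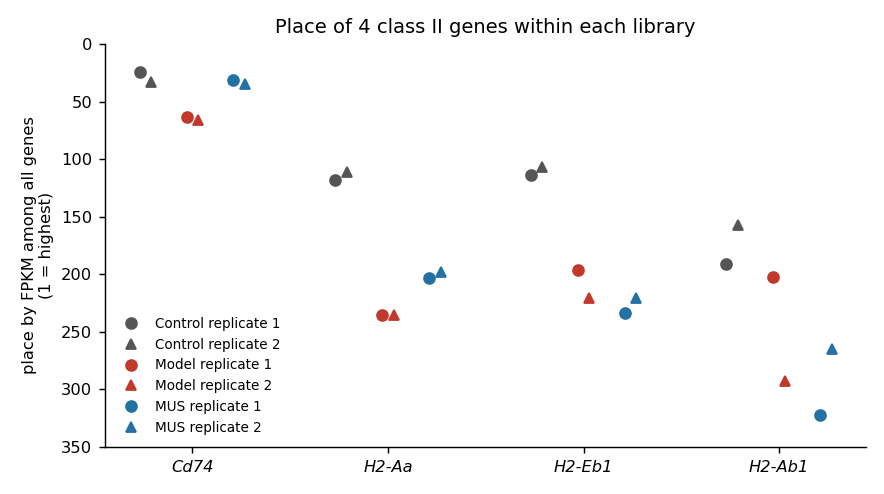
Place by FPKM among all genes within each library (1 is the highest, axis inverted) for Cd74, H2-Aa, H2-Eb1 and H2-Ab1, with 1 point per library, coloured by group. Control points sit above Model points for all 4 genes, and the MUS points of Cd74, 31 and 35, lie near those of Control.

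The comparison of Model with Control asks what LPS with ATP did to these genes. Differences were fitted with limma on log2(FPKM + 1) over all 9794 genes with a mean of at least 1 FPKM, and a gene was called differentially expressed (DEG) when its log2 fold change exceeded 1 in size at an adjusted p of 0.05 or less. On this scale the change of low genes is understated. Of the 7 members, 6 passed the filter and Ciita, with a mean of 0.705 FPKM, did not. None of the 6 was a DEG, against 15.1% of all genes tested. At an unadjusted p under 0.05 the count was also 0, against 33.6% of all genes tested. The median log2 fold change of the 6 was 0.19, beside 0.04 over all genes tested, and it was -0.06 without Model replicate 1.

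H2-DMa had the estimate farthest from 0, a log2 fold change of -0.80 (SE 0.37, 95% interval -1.67 to 0.06, limma adjusted p = 0.17). For the chains, the estimates were 0.15 for H2-Aa (adjusted p = 0.78), 0.44 for H2-Ab1 (adjusted p = 0.46) and 0.23 for H2-Eb1 (adjusted p = 0.67). The estimate was 0.29 for H2-DMb1 (adjusted p = 0.48) and -0.04 for Cd74 (adjusted p = 0.95). These estimates leaned on Model replicate 1. Without that library they were -0.06 for H2-Aa, -0.00 for H2-Ab1, -0.06 for H2-Eb1, 0.07 for H2-DMb1, -0.31 for Cd74 and -1.02 for H2-DMa. The batch given in the labels is the replicate number, and within batch 1 and batch 2 the Model minus Control difference of H2-Ab1 was 1.04 and -0.16. That of H2-DMa was -1.07 and -0.54, with the same sign in both. Of the 6 members, 0 had both Model libraries above both Control libraries and 1, H2-DMa, had both below. Over all genes tested these shares were 32.6% and 28.5%. Per 1000000 fragments on genes, 4 members had both Model libraries below, namely H2-Aa, H2-Eb1, H2-DMa and Cd74, where 53% of all genes did.

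**Figure D3:**
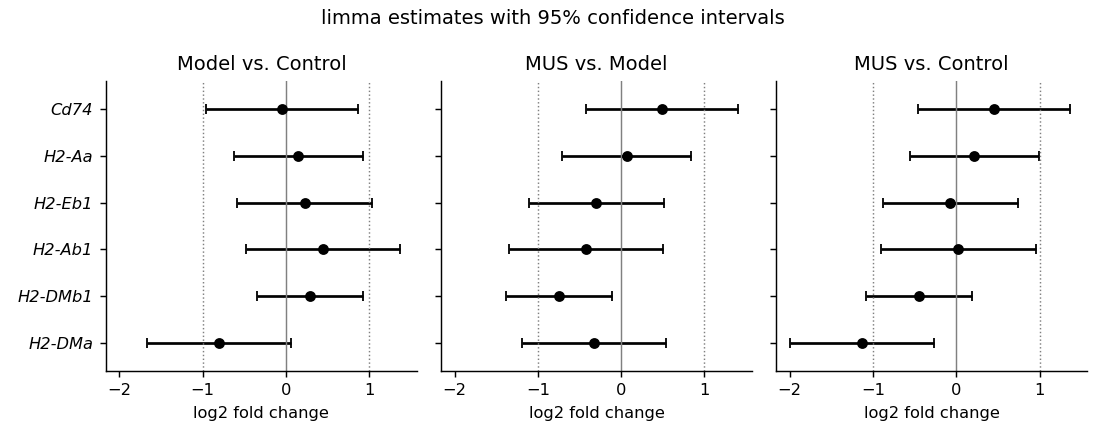
limma log2 fold changes on log2(FPKM + 1) with 95% confidence intervals for the 6 members tested, in 1 panel per comparison, with dotted lines at -1 and 1. In Model vs. Control every interval crosses 0, and those of H2-DMb1 in MUS vs. Model and of H2-DMa in MUS vs. Control lie below 0.

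The sign of these estimates depended on how libraries were scaled. When fragments were divided by the total on genes, the median log2 fold change of all genes tested moved from 0.04 to -0.40, and the estimates became -0.40 for H2-Aa, -0.10 for H2-Ab1, -0.32 for H2-Eb1, -0.23 for H2-DMb1 and -0.59 for Cd74. Relative to that median, H2-Aa stood at 0.00, H2-Ab1 at 0.30, H2-Eb1 at 0.09 and Cd74 at -0.19. Quantile normalisation, with a median of -0.06, gave -0.89 for H2-Aa, -0.45 for H2-Ab1 and -0.75 for H2-Eb1, and Cd74 was then a DEG at -1.001 (limma adjusted p = 0.048), where 14.5% of all genes were. H2-DMa was below 0 under every scaling run. It was a DEG with fragment totals at -1.32 (adjusted p = 0.045), where 22.5% of all genes were. As deposited, the estimate rested on Control replicate 1, being -0.32 (adjusted p = 0.62) without that library and -1.28 (adjusted p = 0.041) without Control replicate 2, where 21.2% of all genes were called. As deposited, the estimate of Cd74 was 0.13 without Control replicate 1 and 0.22 without Model replicate 2. No direction in Model is therefore given for Cd74, H2-Aa, H2-Ab1, H2-Eb1 or H2-DMb1.

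**Figure D4:**
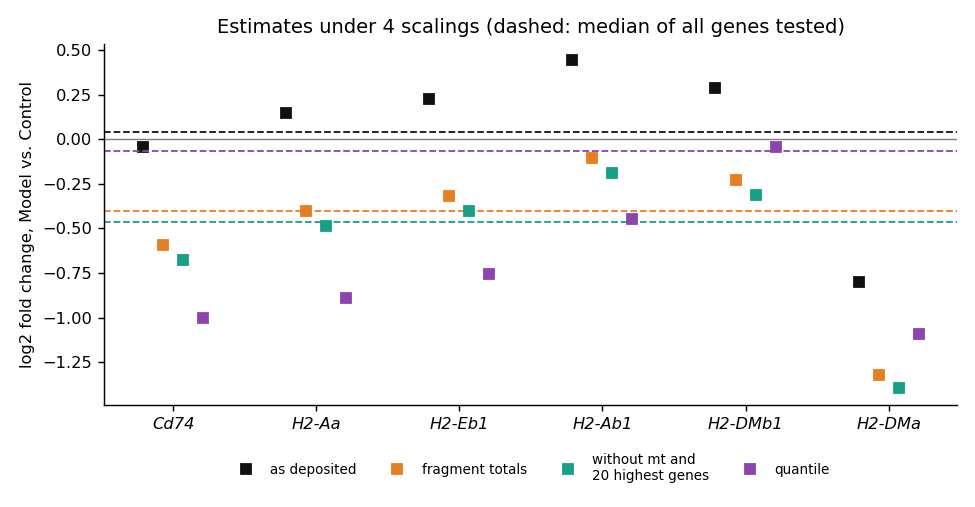
Model vs. Control log2 fold changes of the 6 members tested under 4 scalings of the libraries, with a dashed line at the median of all genes tested under each. H2-Aa, H2-Ab1 and H2-Eb1 lie above 0 as deposited and below 0 under the other 3 scalings, whereas H2-DMa lies below 0 under all 4.

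Ciita was examined outside this fit because of its low level. The ratio of mean FPKM was 2.92-fold lower in Model than in Control. With all 30192 genes of the unfiltered table, of which 0.861% were DEGs (1.51% in MUS vs. Control), its log2 fold change was -0.67 (SE 0.27, limma adjusted p = 0.36). With genes of at least 0.5 FPKM, where 12.6% were DEGs, the adjusted p was 0.14. In limma-voom on the recovered fragments of genes with a mean of at least 10, it was a DEG at -2.03 (SE 0.52, adjusted p = 0.021), while the median of all genes in that fit was -0.60 and 28.2% of 12717 genes were called (22.1% as lower). The last pair of settings was chosen after the low mean of Ciita had been seen. Within batch 1 and batch 2 the difference on log2(FPKM + 1) was -0.45 and -0.88.

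The comparison of MUS with Model asks what muscone added to LPS and ATP. No member was a DEG, against 0% of all genes tested in limma. Over all 9794 genes, 825 had an unadjusted p under 0.05 and the smallest adjusted p was 0.139. Of the members, H2-DMb1 alone had an unadjusted p under 0.05, with a log2 fold change of -0.74 (SE 0.27, 95% interval -1.38 to -0.11, limma adjusted p = 0.51). Its difference within batch 1 was -1.10 and within batch 2 -0.38. The estimate was 0.49 for Cd74 (adjusted p = 0.79) and 0.07 for H2-Aa (adjusted p = 0.97). It was -0.42 for H2-Ab1 (adjusted p = 0.83), -0.30 for H2-Eb1 (adjusted p = 0.87) and -0.33 for H2-DMa (adjusted p = 0.87).

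Both MUS libraries of Cd74 lay above both Model libraries, and both of H2-DMb1 lay below. That is 1 of 6 members in each direction, where 21.2% and 21% of all genes tested did so. Without Model replicate 1 the estimate of H2-Ab1 was 0.03 in place of -0.42 and that of Cd74 was 0.76. Without that library, the estimates were 0.28 for H2-Aa, -0.01 for H2-Eb1, -0.11 for H2-DMa and -0.52 for H2-DMb1. The median of the 6 members was -0.31, beside 0.01 over all genes, and it was 0.01 without Model replicate 1. Mean FPKM of Ciita was 1.62 times as high in Model as in MUS, but 1.02 times without MUS replicate 1, the library of 17 fragments, and 3.95 times without MUS replicate 2, and the difference was not called in any fit, with a limma adjusted p of 0.89 among genes of at least 0.5 FPKM.

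The comparison of MUS with Control takes LPS, ATP and muscone together, and it shares its Control libraries with the first comparison. No member was a DEG, against 20.2% of all genes tested. H2-DMa was lowest at a log2 fold change of -1.13 (SE 0.37, 95% interval -1.99 to -0.26, limma adjusted p = 0.063, unadjusted p = 0.018). It passed both thresholds at -1.63 (adjusted p = 0.020) when fragments were divided by their total, where 27.5% of all genes were called (19.9% as lower). It did so too at -1.61 (adjusted p = 0.018) without Control replicate 2, where 24.5% were called (10.7% as lower), and at -1.13 (adjusted p = 0.048) among genes of at least 5 FPKM, where 25.6% were called. Without Control replicate 1 it was -0.65 (adjusted p = 0.27). Within batch 1 and batch 2 it was -1.82 and -0.43. Cd74 was estimated at 0.45 (adjusted p = 0.42), H2-Aa at 0.21, H2-Ab1 at 0.02, H2-Eb1 at -0.07 and H2-DMb1 at -0.45 (adjusted p = 0.25). Fragment totals, with which the median of all genes was -0.39, turned the first 3 to -0.09, -0.32 and -0.51, and gave -0.61 for H2-Eb1 and -0.96 (adjusted p = 0.027) for H2-DMb1. As deposited, the differences within batch 1 and batch 2 were 0.39 and 0.51 for Cd74 and 0.29 and 0.14 for H2-Aa. They were -0.45 and -0.46 for H2-DMb1, -0.04 and -0.10 for H2-Eb1, and 0.09 and -0.04 for H2-Ab1.

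Of the 6 members, 2 had both MUS libraries above both Control libraries (Cd74 and H2-Aa) and 2 had both below (H2-DMa and H2-DMb1), where 39.6% and 33.8% of all genes tested did. Per 1000000 fragments on genes none lay above and 5 lay below, all but Cd74, where 21% and 57.2% of all genes did. Mean FPKM of Ciita was 4.73-fold lower in MUS than in Control, 2.97-fold without MUS replicate 1 and 11.5-fold without MUS replicate 2. Its log2 fold change was -0.87 among genes of at least 0.5 FPKM (limma adjusted p = 0.058), where 17.1% were DEGs. In limma-voom on genes with a mean of at least 10 fragments it was a DEG at -3.00 (adjusted p = 0.0064), where 32.5% of all genes were called (25.7% as lower).

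Around the members, 33 further genes of class II biology were measured in 4 lists, and 27 of them passed the filter. In Model vs. Control 2 were higher and 1 lower, where 9.5% and 5.56% of all genes tested were. In MUS vs. Model none was a DEG. In MUS vs. Control 4 were higher and 3 lower, where 11.3% and 8.91% of all genes were. With fragment totals 2 were higher and 3 lower, where 7.54% and 19.9% of all genes were. Other class II chains were nearly absent, and none of the 5 measured (H2-DMb2, H2-Oa, H2-Ob, H2-Eb2 and H2-Ea-ps) passed the filter. Their top level was 0.994 FPKM, of H2-DMb2 in Model replicate 1. H2-Ea-ps, the defective I-E alpha gene, was listed at 0 in 5 libraries and had 3 fragments in Model replicate 1.

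The list of antigen processing and turnover held 11 genes, all tested. In Model vs. Control 1 rose and none fell, where 9.5% and 5.56% of all genes tested did, with a median log2 fold change of 0.02. The gene that rose was March1, a ubiquitin ligase that removes class II from the cell surface. March1 measured 6.22 and 13.3 FPKM in Control, 28.9 and 38.9 in Model, with 35.5 and 31.7 in MUS. Its log2 fold change was 1.76 (SE 0.37, limma adjusted p = 0.022), and Control did not overlap with Model or MUS. The call was lost on leaving out any library but Control replicate 2, with adjusted p of 0.061 to 0.076 and estimates of 1.27 to 1.97.

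Ifi30 (GILT), the lysosomal reductase that opens disulfide bonds of antigens, measured 293 and 173 FPKM in Control, 104 and 77.3 in Model, with 63.5 and 65.4 in MUS. It fell in MUS vs. Control (log2 fold change -1.79, limma adjusted p = 0.015) and its Model vs. Control estimate was -1.32 (adjusted p = 0.0501). Ctsd, the aspartic protease cathepsin D, measured 4153 and 2697 FPKM in Control, 2472 and 1249 in Model, with 584 and 839 in MUS. It fell in MUS vs. Control (log2 fold change -2.26, adjusted p = 0.020). In MUS vs. Model its estimate was -1.33 (adjusted p = 0.53). Of its 50-base stretches, 32.4% were shared with another gene of the annotation.

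Ctss, the cysteine protease that cleaves the invariant chain in many antigen-presenting cells, had the highest mean FPKM of the list over all libraries. It measured 3300.2 and 2625 FPKM in Control, 4734 and 2489 in Model, with 4600.04 and 3728 in MUS, so that Control and Model overlapped. Ctsd was higher than Ctss in both Control libraries. Ctsb, another cysteine protease of lysosomes, ranged from 1472 to 2007 FPKM and was not a DEG. Sppl2a, the intramembrane protease that removes the last stub of the invariant chain, measured 24.6 and 72.3 FPKM in Control, 133 and 135 in Model, with 137 and 118 in MUS. Its Model vs. Control estimate was 1.64 (limma adjusted p = 0.064).

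Of the 7 promoter factors, 6 passed the filter and none was a DEG in any comparison. Their median log2 fold changes were 0.05, 0.06 and 0.03. By mean FPKM over all libraries, the highest were the NF-Y subunits, which bind CCAAT. In both Control libraries and in Model replicate 2, however, Creb1 was above Nfyb. Nfya ranged from 11.3 to 14.5 FPKM over the 6 libraries, Nfyc from 4.21 to 7.18 and Nfyb from 2.33 to 6.43. Rfxank, an RFX subunit, was below the filter, at 1.25 and 0.727 FPKM in Control, 0.661 and 0.537 in Model, with 0.334 and 0.233 in MUS, with no overlap between the groups.

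The route from interferon gamma to Ciita, with the regulators of Ciita, held 10 genes, all tested. In Model vs. Control 1 rose and 1 fell, where 9.5% and 5.56% of all genes tested did, with a median log2 fold change of 0.67. Both Model libraries lay above both Control libraries for 9 of the 10 genes, where 32.6% of all genes tested did so. Per 1000000 fragments on genes this held for 3 of the 10 (Jak2, Irf1 and Usf1), where 15.6% of all genes did so. Jak2, a receptor-associated kinase, measured 9.77 and 38.3 FPKM in Control, 160 and 223 in Model, with 273 and 208 in MUS (log2 fold change in Model 3.21, SE 0.59, limma adjusted p = 0.014). Jak2 was higher in every stimulated library than in every Control library.

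Ifngr1, the ligand-binding chain of the receptor, went the other way. It measured 44.2 and 53.1 FPKM in Control, 21.5 and 21.1 in Model, with 22.2 and 22.7 in MUS (log2 fold change in Model -1.15, SE 0.25, limma adjusted p = 0.024). Its call in Model vs. Control was lost on leaving out either MUS library. Irf1, which acts on a Ciita promoter, measured 8.66 and 49.7 FPKM in Control, 133 and 87.3 in Model, with 85.3 and 90.7 in MUS, and its estimate of 2.30 was not called (adjusted p = 0.068). Spi1, the myeloid factor PU.1, measured 92.2 and 132 FPKM in Control and 196 and 158 in Model, and was not a DEG. Control replicate 1 was lowest of all libraries for Jak2 and Irf1. Without either Model library, none of the 3 class II list genes called in Model vs. Control remained so.

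In MUS vs. Control 3 genes of this route rose and 1 fell, where 11.3% and 8.91% of all genes tested did. Jak2 (3.54) and Ifngr1 (-1.08) kept the directions they had in Model. The other two that rose were Jak1, the partner kinase of Jak2 (1.10, limma adjusted p = 0.029), and Prdm1, a repressor of Ciita in plasma cells (1.38, adjusted p = 0.040). Prdm1 measured 5.93 and 13.9 FPKM in Control, 19.0 and 20.4 in Model, with 29.2 and 22.3 in MUS. The calls of Jak1 and Prdm1 were lost when fragments were divided by their total, at 0.58 (adjusted p = 0.12) and 0.89 (adjusted p = 0.097). Without MUS replicate 1, all calls of class II list genes in MUS vs. Control were lost. Without MUS replicate 2, those of Ifi30, Ctsd and Ifngr1 were among the calls lost.

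**Figure D5:**
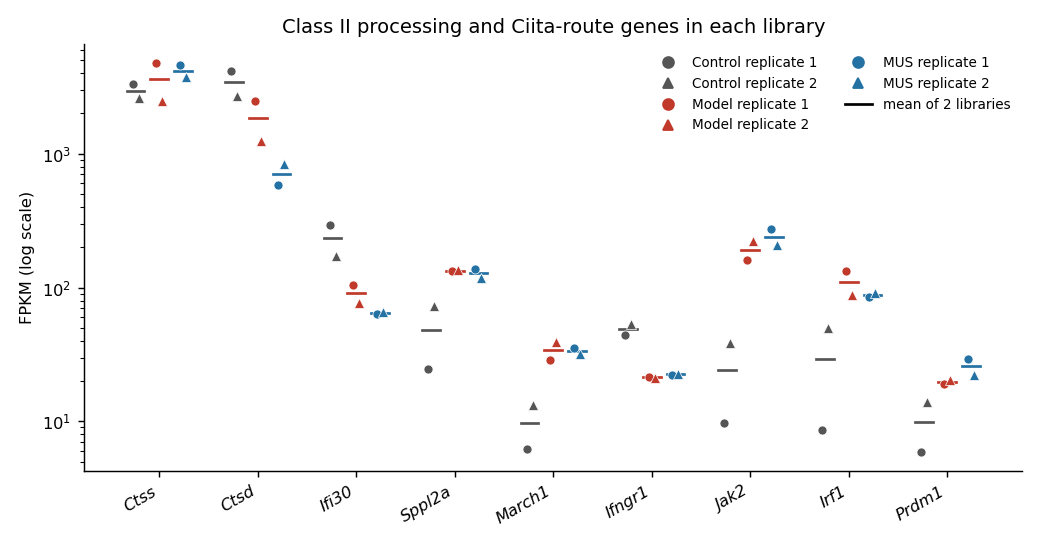
FPKM on a log axis of 9 genes of class II processing and of the route to Ciita, with 1 point per library, coloured by group. Jak2 and March1 have all stimulated libraries above Control, Ifngr1 and Ifi30 have all below, and the Control points of Ctss lie within the range of the others.

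The labelled cell type was checked against its markers. Lyz2, the macrophage lysozyme, averaged 10138 FPKM, and all 9 macrophage markers had a mean of at least 1 FPKM. Of these, Cd14 (2.64) and Fcgr1 (3.57) were higher and Csf1r (-1.37) lower in Model, with limma adjusted p of 0.026, 0.0033 and 0.029. Other cells that carry class II could add to the members' RNA. B cell markers summed to 15.8 and 11.8 FPKM in Control, 8.53 and 8.40 in Model, with 7.75 and 9.53 in MUS, over 10 genes of which 2 passed the filter. Their most abundant gene by mean over all libraries, Cd22, a DEG in Model (-1.34, limma adjusted p = 0.022), was lower, as Ciita was. In every stimulated library, however, Ighm was above Cd22. Ighm, the other gene tested, measured 2.53 and 3.73 FPKM in Control, 4.47 and 3.73 in Model, with 3.65 and 4.93 in MUS (log2 fold change in Model 0.32, adjusted p = 0.40). Of the defining B cell genes, Cd79a measured 0.270 and 0.300 FPKM in Control, 0.0973 and 0 in Model, and 0 in both MUS libraries, and Ms4a1 stayed at or below 0.332 FPKM in all 6 libraries. Both are close to 0, and Pax5 and Ighd, also under 1 FPKM, were higher in every stimulated library than in Control. The part of B cells in the level of Ciita was not tested.

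Dendritic cell markers, 10 genes of which 2 passed the filter, summed to 2.25 and 3.20 FPKM in Control, 10.3 and 8.89 in Model, with 6.21 and 9.32 in MUS. Ccr7, their most abundant gene by mean over all libraries, is one that activated macrophages can also express. It was a DEG in Model (1.97, limma adjusted p = 0.0068). Flt3 and Zbtb46 stayed at or below 0.456 FPKM. Batf3, the other gene tested, measured 0.685 and 0.602 FPKM in Control, 2.66 and 1.33 in Model, with 0.290 and 0.732 in MUS (log2 fold change in Model 0.83, adjusted p = 0.10). Xcr1 was at 0.118 and 0.0982 FPKM in Control and at 0.594 to 1.24 in the stimulated libraries. Cd209a went the other way, at 0.746 and 1.10 FPKM in Control, 0.403 and 0.408 in Model, with 0.669 and 0.622 in MUS. In both Control libraries Cd209a was above Ccr7. The part of dendritic cells in the members' levels was not tested. The 5 markers of resident large peritoneal macrophages and the 6 of monocyte-derived macrophages that passed the filter gave 0 DEGs in Model vs. Control. Markers of those monocyte-derived cells, which in the peritoneum express class II, summed to 322 and 395 FPKM in Control, 213 and 235 in Model, with 268 and 277 in MUS. Fn1, Itgax and Retnla led this sum, so it says little of the low genes of the list. Among those, Cd226 went the other way, at 0.0742 and 0.0371 FPKM in Control and 0.120 to 0.309 in the stimulated libraries. Ly6c2 overlapped between Control and Model. The part of monocyte-derived cells in the results was not tested either. S100a9, Ly6g and Elane of neutrophils and Prg2, Epx and Ear6 of eosinophils were listed at 0 in every library, but others of these lists were not. S100a8, which activated macrophages can make, was a DEG in Model (1.90, limma adjusted p = 0.037). Camp, of neutrophils, measured 0 and 0.288 FPKM in Control, 1.59 and 1.11 in Model, with 0.611 and 0.487 in MUS. Siglecf, of eosinophils, measured 4.06 and 2.46 FPKM in Control and 1.23 to 1.52 in the stimulated libraries, and was not a DEG. The part of neutrophils and eosinophils in the results was not tested. No marker of T and innate lymphocytes or mast cells passed the filter, and of the mesothelial and fibroblast markers Dcn was a DEG (1.18, adjusted p = 0.016).

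The members did not share a single pattern over the libraries. The mean centred log2 profile of the 6 tested was highest in Model replicate 1, at 0.36, and lowest in Model replicate 2, at -0.19. Over the 6 libraries, Pearson's r with this profile, which contains each gene itself and so raises its r, was 0.89 for H2-Eb1, 0.82 for H2-Ab1, 0.74 for H2-DMb1, 0.49 for H2-DMa, 0.47 for H2-Aa and 0.08 for Cd74. Among 3565 other genes that varied, those with the highest r were Pex16 (0.97), Snord34 (0.96), Gm10076 (0.96), Ppp1r35 (0.95) and Hist1h4i (0.94). All 5 were highest in Model replicate 1, the library with the most genes above 0, so this likeness rests largely on 1 library.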

How the data were processed

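Poly(A) RNA libraries of 3 groups of 2 samples were analysed. The authors deposited FPKM for 54532 genes. The submitters' processing notes name HISAT2, featureCounts 1.5.0-p3 and GRCm39, whereas the paper's methods name RSEM. Positions matched GENCODE M21, on GRCm38, for 98.3% of 54495 shared gene IDs, so that build is given here. FPKM times gene length, divided by 1 constant per library inferred from the lowest values, gave whole fragments (tolerance 0.1) in 100% of values, and their sums gave the depths. The names of 2 genes had turned into dates and were matched by ID.

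limma 3.58.1 (R 4.3.3) with a variance trend was fitted to log2(FPKM + 1) of 9794 genes with a mean of at least 1 FPKM, with 3 groups, 3 residual degrees of freedom and Benjamini-Hochberg adjustment over all genes tested. Since FPKM were deposited, the count model of the study was not run, and limma-voom on the recovered fragments was an alternative. Exact permutation of 2 against 2 libraries cannot give a p under 0.333. In simulated data 52 of 66 genes changed by 3 in log2 were called in Model vs. Control, 43 of 67 changed by 2 and 25 of 67 changed by 1.5, with 3 calls among unchanged genes, over 9794 genes.

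The labels give a batch equal to the replicate number, which pairs the libraries. Deviations from the group means of same-numbered libraries correlated at 0.12 (Control and Model), 0.14 (Model and MUS) and -0.09 (Control and MUS). The fit had no block, and the block was an alternative. The members, lists and tests were chosen with earlier results of these data known. Named genes were all members and, of each list, the 3 highest by mean and every DEG. Of the cell marker lists only the highest and those that bear on class II are given. Some genes are named outside this rule, among them Sppl2a, which was not a DEG, and Rfxank, which was below the filter. Alternatives changed the pseudocount, low-value filter, scaling, groups fitted, trend, block and libraries. A pair of genes in these lists is not reported here and was left out of the list counts. Likeness of the members' protein sequences was not analysed here.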

Additional observations from a re-analysis of the deposited data

How the results depend on the processing

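Counts of DEGs over all genes changed with the settings, and the cause was not tested. In Model vs. Control the 1475 DEGs (930 higher, 545 lower) became 824 with a pseudocount of 5, 260 with no filter, 797 with only the groups compared, 2410 when rescaled without mitochondrial and the 20 highest genes (589 higher, 1821 lower), 2734 in limma-voom on recovered fragments (684 higher, 2050 lower), 2200 with fragment totals (646 higher, 1554 lower) and 3591 in limma-voom on genes with a mean of at least 10 fragments, a setting added after the data were seen. In MUS vs. Control the 1980 DEGs became 1025, 456, 3144 and 4136 with the pseudocount of 5, no filter and the 2 voom fits, and the split of 1107 higher and 873 lower became 738 and 1953 with fragment totals. In MUS vs. Model the 0 DEGs became 1 with a pseudocount of 0.1, 7 with only the groups compared and 4 with the replicate block, which changed no call of a member. Members called in Model vs. Control went from 0 to 1 of 6 with quantile normalisation, rescaling, fragment totals and voom, and to 2 of 7 in the added voom fit, where 14.5%, 24.6%, 22.5%, 27.9% and 28.2% of all genes were called. In MUS vs. Control they went from 0 to 1 with a mean of at least 5 FPKM, rescaling and fragment totals, where 25.6%, 27.6% and 27.5% of all genes were called, to 2 of 6 with voom, where 32.1% of all genes were called, and to 3 of 7 in the added voom fit, where 32.5% of 12717 genes were called. Of the other class II genes, the 3 called in Model vs. Control became 0 with no filter, 6 of 22 at a mean of at least 5 FPKM (20.6% of all genes), 5 with quantile normalisation (14.5%) and both voom fits and 1 with only the groups compared (8.14%), and the 7 in MUS vs. Control became 0 with no filter. Leaving out each library in turn gave 692 to 2077, 0 to 31 and 184 to 2398 DEGs in Model vs. Control, MUS vs. Model and MUS vs. Control, with 0 to 1, 0 to 0 and 0 to 1 members and 0 to 7, 0 to 0 and 0 to 8 other class II genes. The highest DEG count in MUS vs. Model, 31, came without Model replicate 2, and the lowest in MUS vs. Control, 184, without MUS replicate 1. With 2 libraries a group, a lone sample is assumed to vary like the other groups. The depth of 17 to 383 fragments limits Ciita, and 2 libraries a group limit all members.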
